A study of Mus musculus with 2 samples.

Results

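The widest DNase-hypersensitive sites of RANKL-treated RAW264 cells are described here. They are the peaks of the RANKL list on chromosomes 1 to 19 and X that are 700 bp or wider. There were 665 of them among 16364 peaks on those chromosomes (4.06%), and 16447 in the whole list. RAW264 is a mouse macrophage-like cell line whose cells fuse into osteoclasts, the cells that resorb bone, in response to RANKL, the ligand of the receptor activator of NF-kappaB. The study compared RAW264 cells without RANKL with cells of the same line kept for 24 hours in 234 ng/ml GST-RANKL, and each condition had 1 DNase-seq library. All values therefore describe these 2 libraries, with no replicate error and no test across replicates.

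DNase I cuts DNA where nucleosomes have been moved aside, so a hypersensitive site marks a promoter, an enhancer or another element held open by bound proteins. Within 1 map, a wide site can be a place where several elements lie side by side or where cutting is strong enough for the flanks to pass the calling threshold as well. Sequence present in many copies can also give wide or tall peaks, because reads from all copies may be placed on the few that the assembly holds.

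These sites were chosen by their width in the RANKL list, so width, score and number in that list are given as description only. Their median width was 844 bp (quartiles 754 and 976 bp), against 226 bp (quartiles 158 and 345 bp) in the other 15699 peaks. The sites thinned out quickly above the threshold: 520 (78.2%) were at least 700 and under 1000 bp wide, 131 were at least 1000 and under 1500 bp and 14 were 1500 bp or wider. Together they covered 612.3 kb, or 12.8% of the length covered by the RANKL list. Widths were not compared between the lists as a change with RANKL, because 99.9% of the peaks without RANKL were at least 700 bp wide. Only 10 of the 665 sites were wider than the median peak without RANKL (1739 bp). Where widths of both lists appear together below, they describe only how overlapping peaks lie and rank.

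**Figure D1:**
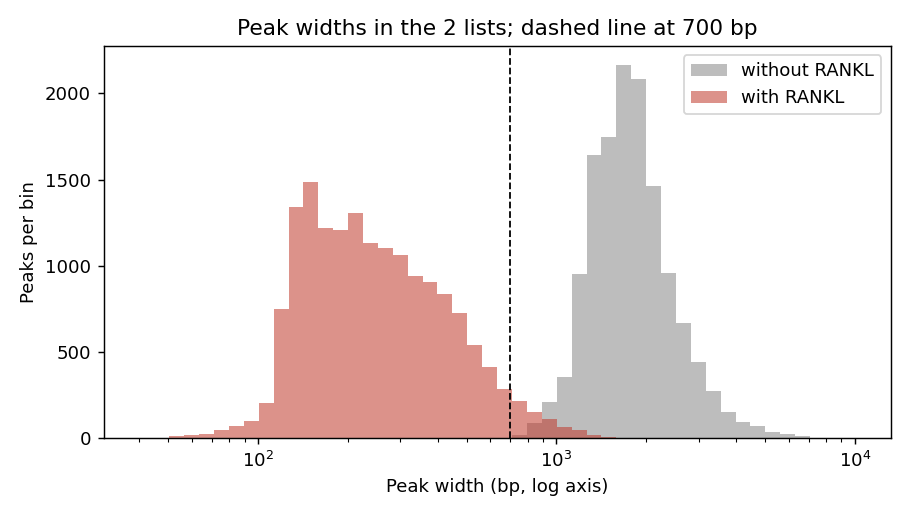
Number of peaks (vertical axis) by width in bp (log axis) for the list with RANKL (red) and the list without RANKL (grey) on chromosomes 1 to 19 and X. The 665 sites described here are the red tail to the right of the dashed line at 700 bp, where nearly all grey peaks lie.

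No natural break separated the sites from their narrower neighbours. The 3 widest peaks left out, all of 699 bp, had scores of 510.3 (chromosome 6, 136752390 to 136753088), 263.4 (chromosome 12, 9036647 to 9037345) and 231.6 (chromosome 11, 52045147 to 52045845). Of the 4 sites at exactly 700 bp, the top 3 scored 639 (chromosome 3, 95623211 to 95623910), 365.6 (chromosome 12, 32184022 to 32184721) and 345.6 (chromosome 13, 5844365 to 5845064). All 6 of these peaks overlapped a peak without RANKL.

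Scores are the authors' values and served only for ranking within a list. The widest sites ranked high: the median score was 294.5 (quartiles 223.9 and 399.3), against 71.8 (quartiles 56.6 and 110.6) in the narrower peaks. The highest 10% of the RANKL list by score held 521 of the 665 (78.3%). Wide sites nevertheless made up only 31.8% of that highest 10%, so most of the strongest peaks were narrow. Over all 16364 peaks, width and score had a Spearman correlation of 0.73, a description of values from the same reads. At the other end, 11 wide sites were in the lower 50% by score. The weakest of these was on chromosome 7 at 29166356 to 29167058 (703 bp, score 53.2, no peak without RANKL on it).

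The first comparison asked whether the widest sites were also called in untreated cells. Most were: 619 of 665 (93.1%, 95% Wilson interval 90.9 to 94.8%) overlapped a peak without RANKL by at least 1 bp. The background over all RANKL peaks was 65.9%, and the narrower peaks reached 64.7% (interval 64.0 to 65.5%). The difference was 28.3 percentage points (95% Newcombe interval 26.0 to 30.2). It was -0.84 points once the narrower peaks were weighted to the scores of the wide sites. Intervals throughout reflect counting error alone and take no account of the dependence between neighbouring peaks. A wider peak has more chance to touch another, so the centre was used as well. With the centre of the RANKL peak required to lie inside a peak without RANKL, the same 619 of 665 counted as shared, against 64.7% of the narrower peaks.

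Sharing climbed steeply with width and then levelled off well below 700 bp. It was 23.3% (interval 21.9 to 24.9%) in peaks from 100 to under 150 bp, 77.5% (interval 76.2 to 78.8%) from 200 to under 300 bp and 94.9% (interval 93.6 to 96.0%) from 500 to under 700 bp. In the wide sites it was 95.4% (interval 92.2 to 97.4%) from 700 to under 800 bp and 95.3% (interval 92.0 to 97.3%) from 800 to under 1000 bp. It was lower at the extreme end, with 117 of 131 sites (89.3%, interval 82.9 to 93.5%) from 1000 to under 1500 bp and 6 of 14 (42.9%, interval 21.4 to 67.4%) at 1500 bp or more. All 8 unshared sites of 1500 bp or more lay in 2 runs of wide sites, on chromosomes 11 and 1. The 14 unshared sites from 1000 to under 1500 bp were more spread, and 7 of them lay outside cluster windows, defined as 100 kb windows with at least 5 RANKL-only peaks. Leaving out these windows raises a share by construction, since unshared peaks define them.

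The difference from narrower peaks moved with score. Sharing also rose with score in the RANKL list, and when the narrower peaks were weighted to the score deciles of the wide sites, 93.9% of them were shared against 93.1% of the wide sites. In the highest 10% by score, 508 of 521 wide sites (97.5%, interval 95.8 to 98.5%) and 1068 of 1116 narrower peaks (95.7%, interval 94.3 to 96.7%) were shared. The intervals overlapped, and within that 10% the wide sites still scored higher, with a median of 332.6 against 272.6. Below it, wide sites were shared less often than narrower peaks of like score: 111 of 144 (77.1%, interval 69.6 to 83.2%) against 87.5% in narrower peaks weighted to the same deciles. Of these 144 sites, 16 lay in cluster windows, and 1 of the 16 was shared. Without cluster windows the values were 110 of 128 (85.9%, interval 78.9 to 90.9%) and 90.0%, and the second lay within the interval of the first.

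**Figure D2:**
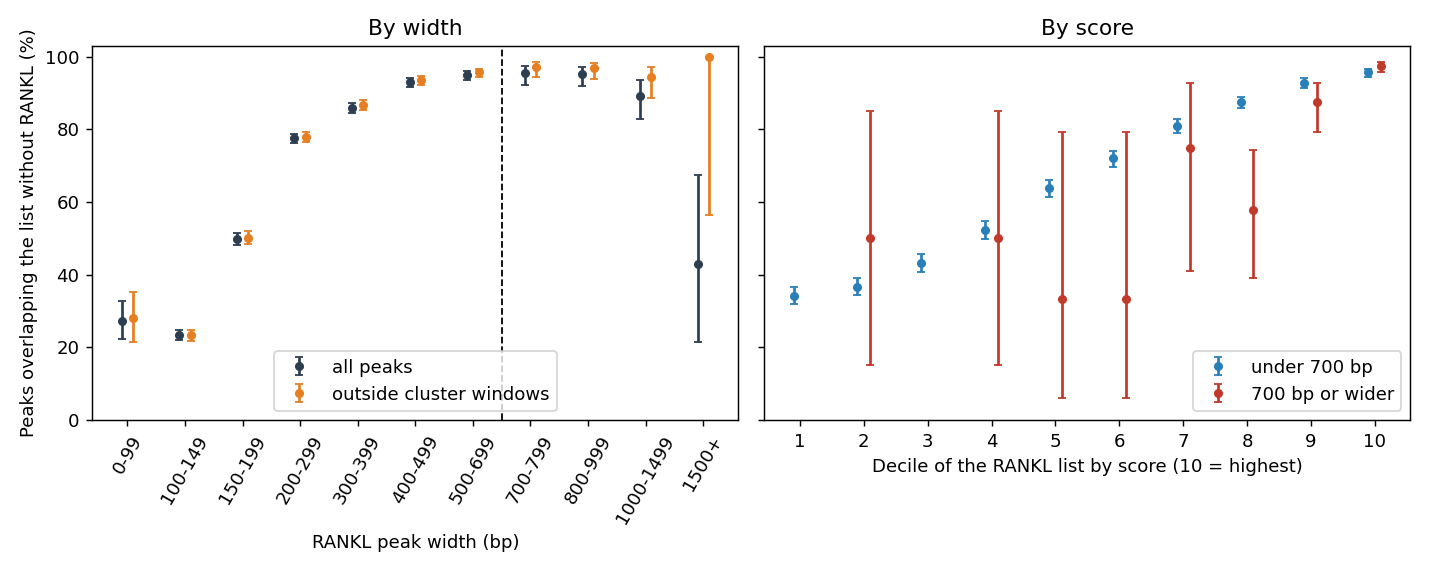
Percent of RANKL peaks that overlap a peak without RANKL by at least 1 bp, with 95% Wilson intervals, by width in bp (left; blue-black all peaks, orange outside cluster windows, dashed line at 700 bp) and by decile of the RANKL list by score (right; blue under 700 bp, red 700 bp or wider). Sharing reaches 94.9% before 700 bp and is 42.9% in the 14 sites of 1500 bp or more, and red and blue points meet in the highest decile, at 97.5% and 95.7%.

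The peaks without RANKL that lay under the widest sites were among the strongest of their own list, a measure that the choice of sites did not use. The 619 shared sites fell on 610 peaks without RANKL, of which 602 carried 1 wide site, 7 carried 2 and 1 carried 3. The median of the 610 was 2380 bp in width (quartiles 2040 and 2939 bp), with a median score of 227 (quartiles 166 and 304). Peaks under narrower RANKL peaks only (7564) had medians of 1844 bp and 127, and peaks under no RANKL peak (5305) had 1522 bp and 73.2. Of the 610, 328 (53.8%) ranked by score in the top 10% of the untreated list, and 38 (6.23%) were in its lower 50%. Under narrower peaks only, 13.3% were in the highest 10% and 33.5% in the lower 50%. These contrasts were not weighted to score in the RANKL list, where the wide sites ranked higher. The part of that score in them was not tested. All 619 shared wide sites lay wholly inside a peak without RANKL, which has to be longer than the site to hold it. The part of this in the width medians was not tested either.

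Seen from the untreated cells, 610 of 13479 peaks (4.53%) had a wide RANKL site on them. That share was 2 of 1347 (0.148%, interval 0.0407 to 0.54%) in the lowest decile by score, 8.83% (interval 7.43 to 10.5%) in the next to highest and 24.3% (interval 22.1 to 26.7%) in the highest. By width it was 0 of 1347 in the narrowest decile (a count of 0 allows up to 0.223%) and 16.4% (interval 14.5 to 18.5%) in the widest. A longer peak has more room to hold a wide site, and the part of this in the width contrast was not tested. Even in the highest decile by score of the untreated list, most peaks (1007 of 1348) had only RANKL peaks under 700 bp on them, and 13 had none.

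**Figure D3:**
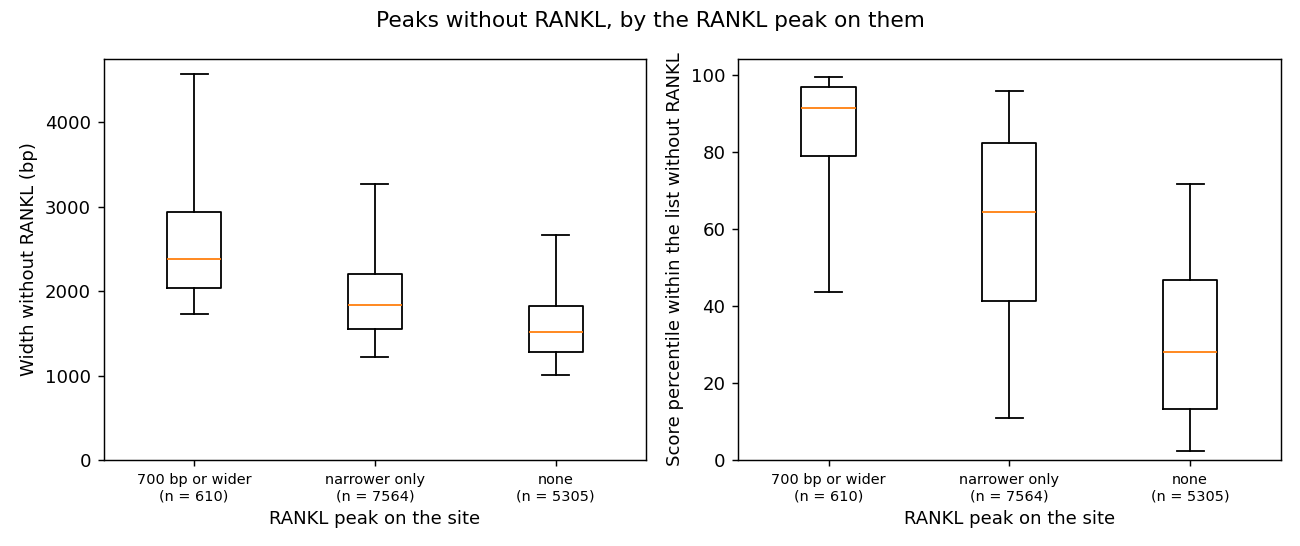
Width in bp (left) and score percentile within the list (right) of the peaks without RANKL, by the RANKL peak on them; boxes span the quartiles, lines mark medians and whiskers the 5th and 95th percentiles. Peaks under the widest RANKL sites have a median width of 2380 bp and a median score percentile of 91.4, against 1844 bp and 64.4 under narrower peaks only and 1522 bp and 28.0 under none.

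All 619 shared sites lay wholly inside a single peak without RANKL, and none was wider than it. This was not particular to wide sites, since 10124 of 10165 shared narrower peaks (99.6%) also lay wholly inside one. The peak around a wide site was a median of 2.78 times as wide (quartiles 2.38 and 3.47). The wide site filled a median of 36.0% of it (quartiles 28.8 and 42.1%, highest 62.4%). For shared narrower peaks the filled part was 14.4%, a difference that follows from the rule. The centres of the wide sites lay a median of 172 bp from the centres of the surrounding peaks, or 7.19% of their width. Centres of shared narrower peaks lay 203 bp away, or 10.9% of that width. In the highest 10% by score the distances were 6.57% for wide sites and 7.29% for narrower peaks. In bp they were 150.5 and 136.5, the reverse order. Among the 619, the Spearman correlation between the 2 lists was 0.28 for width and 0.68 for score. Among 10165 shared narrower peaks it was 0.31 and 0.35. Both are descriptions across sites that share 2 libraries. The 700 bp rule also cuts the range of widths in each set. Of the shared narrower peaks, 4735 (46.6%) lay on a peak without RANKL that held 2 or more RANKL peaks, so its values were counted repeatedly. This held for 124 (20.0%) of the wide sites. The part of these points in the correlations was not tested.

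A wide site was mostly the sole RANKL peak on its open stretch. Of the 610 peaks without RANKL under wide sites, 495 (81.1%, interval 77.9 to 84.0%) held no further RANKL peak, against 5430 of 7564 (71.8%, interval 70.8 to 72.8%) under narrower peaks only. Among the top 10% of untreated peaks the gap was larger, at 257 of 328 (78.4%, interval 73.6 to 82.5%) against 525 of 1007 (52.1%, interval 49.1 to 55.2%). A wide peak leaves less room for a second one on the same stretch, and the part of this in the difference was not tested.

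Spacing along the RANKL list differed by scale. Another RANKL peak lay within 1 kb, edge to edge, of 128 wide sites (19.2%, interval 16.4 to 22.4%), against a background of 31.5% over all RANKL peaks and 32.1% (interval 31.3 to 32.8%) in the narrower ones. In the highest 10% by score the shares were 16.9% (interval 13.9 to 20.4%) and 33.9% (interval 31.1 to 36.7%). The median gap to the next RANKL peak was 13.8 kb for wide sites and 11.9 kb for narrower peaks, and the upper quartile was 35.5 and 44.3 kb. At a longer range wide sites were less often isolated: 16.8% (interval 14.2 to 19.9%) had no RANKL peak within 50 kb, against 22.5% (interval 21.8 to 23.1%) of the narrower peaks. In the highest 10% by score these shares were closer, at 18.6% (interval 15.5 to 22.2%) and 20.4% (interval 18.2 to 22.9%), and the intervals overlapped. Among the wide sites, 19 (2.86%) had another wide site within 1 kb, 53 (7.97%) within 10 kb and 209 (31.4%) within 100 kb. Narrow peaks standing close together could be pieces of one site. With RANKL peaks closer than 1 kb joined, 2028 regions were 700 bp or wider, of which 537 were a single peak and 1491 were made of 2 or more peaks.

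The 10 widest sites were not typical of the rest, since 7 of them had no peak without RANKL on them. On chromosome 11, 5 of the 10 lay near the start of the assembled sequence, at 3041454 to 3048916 (7463 bp, score 198), 3059466 to 3063480 (4015 bp, score 278), 3091052 to 3094390 (3339 bp, score 931), 3070344 to 3072628 (2285 bp, score 291) and 3095338 to 3097178 (1841 bp, score 130). On chromosome 1, 2 lay at 90172144 to 90174808 (2665 bp, score 353) and 90109875 to 90111725 (1851 bp, score 145). These 7 were 38.8 to 180 kb from the nearest peak without RANKL.

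The other 3 of the 10 were shared. The site on chromosome 17 at 39979902 to 39983650 was 3749 bp wide with a score of exactly 3100, and it filled most of a peak without RANKL of 6265 bp that also scored 3100. A further RANKL peak lay 730 bp away on that same stretch. The site on chromosome 7 at 52103898 to 52105768 (1871 bp, score 644) was the sole RANKL peak on a peak of 3343 bp with a score of 550. On chromosome 4, near the start of the sequence, the site at 3009779 to 3011639 (1861 bp, score 177) was 1 of 3 RANKL peaks on a peak of 7522 bp that scored only 87.7.

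Scores of 3100 or more were reached by 5 wide sites and by 32 narrower peaks. Besides the chromosome 17 site, these were 2 sites 3.25 kb apart on chromosome 2, at 98506393 to 98507492 (1100 bp) and 98502359 to 98503147 (789 bp), 1 on chromosome 15 at 74916663 to 74917503 (841 bp) and 1 on chromosome 10 at 21862097 to 21862881 (785 bp). All 5 were shared, and the peak without RANKL on them scored 3100 at 4 of the 5 and 498 at the narrower chromosome 2 site.

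The second comparison asked which of the widest sites appeared only with RANKL. There were 46 (6.92%, interval 5.23 to 9.10%), against a background of 34.1% over all RANKL peaks. They were wider than the shared sites (median 984 against 837 bp) and scored lower (median 145 against 304). Cluster windows held 24 of the 46 and left 22 outside, while 5263 of 5534 unshared narrower peaks lay outside them. Unshared peaks define these windows, so unshared wide sites standing together help to make the windows that hold them. Cluster windows held 31 of all 665 wide sites (4.66%), against a background of 2.58% of all RANKL peaks. The 13 unshared sites in the highest 10% by score included 9 in cluster windows.

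Part of the unshared wide sites stood in runs. With gaps of up to 100 kb, 28 of the 46 fell in 6 runs of 2 or more and 18 stood alone. Of the 28, 12 were in a single run on chromosome 11 and 6 in one on chromosome 1. Runs were not counted for unshared narrower peaks, so this share has no background beside it. No run held a peak without RANKL or a shared wide site within its span. The run with the most wide sites, on chromosome 11 from 3033251 to 3099444, held 12 of 735 to 7463 bp among 13 RANKL peaks. These 12 covered 27.2 kb of its 66.2 kb. The sites of this run lay 30.6 to 68.2 kb from the nearest peak without RANKL. Next by number was the run on chromosome 1 from 90109875 to 90198271, the longest at 88.4 kb. It held 6 wide sites of 776 to 2665 bp, with scores from 60.3 to 353, and no narrower peak. Runs of 3 lay on chromosome 16 from 3231581 to 3241519 and on chromosome 4 from 62157482 to 62181488, and runs of 2 on chromosome 11 from 68907988 to 68912957 and on chromosome 19 from 5802878 to 5849953. The runs were picked out after their values were seen. The runs near the start of chromosomes 11 and 16 lie at the centromere end, since mouse chromosomes have the centromere at one end. Copy number of the sequence under these peaks was not measured here.

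**Figure D4:**
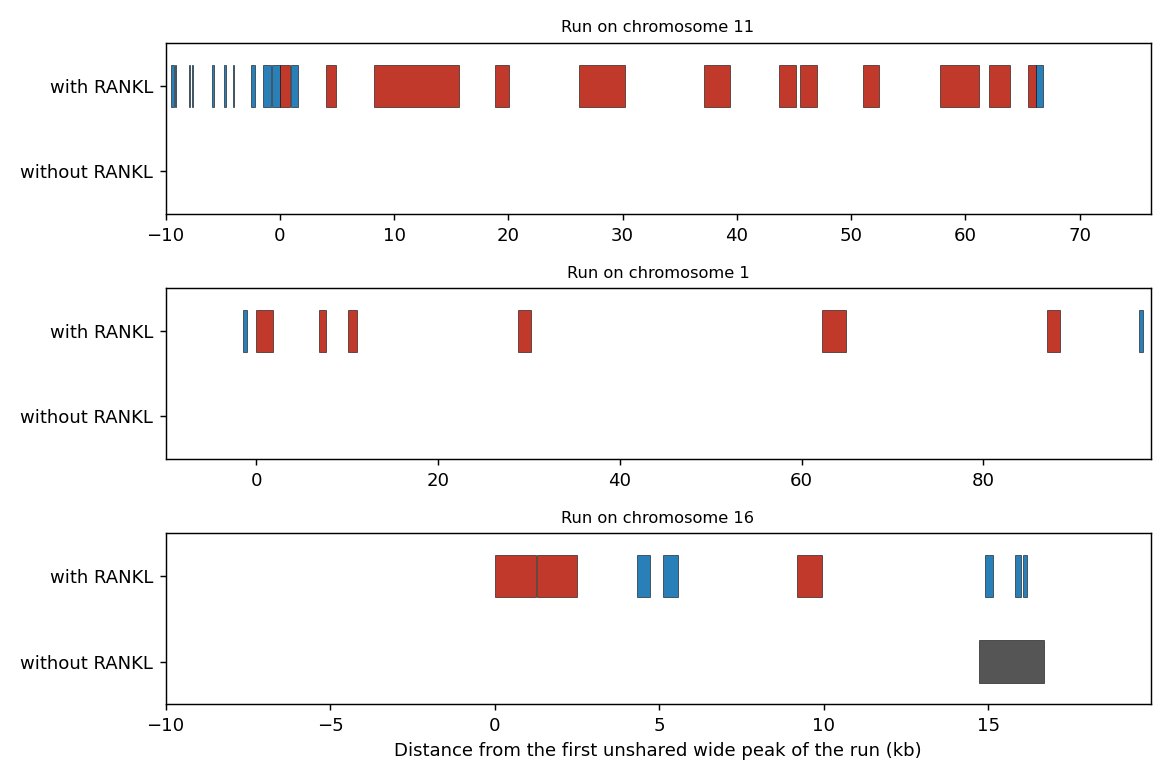
RANKL peaks (upper row of each panel) and peaks without RANKL (lower row, grey) in the runs of unshared wide sites on chromosomes 11 and 1, which held most, and on chromosome 16, by distance in kb from the first wide site of the run; red bars are RANKL peaks of 700 bp or more and blue bars narrower ones. The runs on chromosomes 11 and 1 have 12 and 6 red bars over an empty lower row; the chromosome 16 run, with 3, ties with one on chromosome 4 that is not drawn.

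The 46 unshared wide sites lay a median of 24.0 kb (quartiles 4.88 and 59.9 kb) from the nearest peak without RANKL, against 34.0 kb (quartiles 10.9 and 117 kb) for 5534 unshared narrower peaks. Outside cluster windows, 22 unshared wide sites remained. Their median gap was 4.95 kb (quartiles 2.56 and 19.4 kb), against 36.8 kb (quartiles 11.8 and 122 kb) for 5263 unshared narrower peaks outside those windows. This contrast was not weighted to score, and the median score of the 22 was 137.6. The 22 include a run of 3 on chromosome 4 and a run of 2 on chromosome 11, so they are not all separate places. Unshared peaks define the windows left out. The part of score, runs or windows in the contrast was not tested. The 5 with the highest scores were on chromosome 5 at 125869321 to 125870515 (1195 bp, score 291, gap 2.55 kb), chromosome 3 at 89197354 to 89198569 (1216 bp, score 229, gap 16.2 kb), chromosome 4 at 62180306 to 62181488 (1183 bp, score 219, gap 3.60 kb), chromosome 13 at 49295965 to 49296714 (750 bp, score 215, gap 3.42 kb) and chromosome 8 at 87509801 to 87510529 (729 bp, score 203, gap 2.60 kb). Of the 22, 11 were over 5 kb from a peak without RANKL, and the other 11 were nearer. Read depth and the calling settings are unknown for both lists, so an unshared site is one that was not called, which is not the same as closed.

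The third comparison set the chromosomes side by side. Chromosome 3 had more wide sites than any other, 94 of its 1196 RANKL peaks (7.86%, interval 6.47 to 9.52%), against 3.76% (interval 3.47 to 4.08%) on all other chromosomes together. It held 14.1% of all wide sites and 7.02% of the narrower peaks. Chromosome 11 followed with 75 of 1243 (6.03%, interval 4.84 to 7.50%), or 62 of 1213 (5.11%, interval 4.01 to 6.50%) outside cluster windows, and its interval overlapped that of chromosome 3. Chromosome 13 had the lowest autosomal share, 14 of 721 (1.94%, interval 1.16 to 3.23%). Chromosome X had 1 wide site among 204 peaks. The excess on chromosome 3 did not come with a larger unshared part, since 90 of its 94 wide sites (95.7%, interval 89.6 to 98.3%) were shared. Nor did it go away at high scores, where 66 of the 122 chromosome 3 peaks in the highest 10% were wide (54.1%, interval 45.3 to 62.7%), against 30.0% on the other chromosomes.

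Within chromosome 3 the wide sites were gathered in 1 stretch. From 55 to 130 Mb, a segment known from earlier results of these data to be rich in RANKL peaks, 86 of 909 RANKL peaks were wide (9.46%, interval 7.72 to 11.5%), against 8 of 287 (2.79%, interval 1.42 to 5.40%) on the rest of the chromosome. The window from 85 to 110 Mb alone, picked after its values were seen, held 74 of the 94. Over the segment the median score of RANKL peaks was 68.4, and on the rest of the chromosome it was 69.6.

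Peaks of the untreated library were also wide in this segment. Neither the width rule nor the choice of the segment used this measure itself. It is not independent of them, since almost all shared RANKL peaks lay wholly inside peaks without RANKL. The median width of the 471 peaks without RANKL in the segment was 2161 bp (quartiles 1752 and 2967 bp). It was 1697 bp on the rest of chromosome 3, and the medians of the other 18 autosomes were 1680 to 1802 bp. Of the 471, 149 (31.6%, interval 27.6 to 36.0%) were in the widest 10% of their list, against 9.20% (interval 8.71 to 9.71%) on all other chromosomes and 6.37 to 11.9% on single autosomes. Their scores were not higher: the median was 100.4 in the segment and 101 on other chromosomes, and 9.77% and 10.1% were in the highest 10%. Width was greater in the segment also at peaks under no RANKL peak (median 1720 against 1515 bp elsewhere), under narrower RANKL peaks only (2215 against 1832 bp) and under wide RANKL sites (2912 against 2320 bp). With the whole segment left out, 92.7% of the wide sites were shared.

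**Figure D5:**
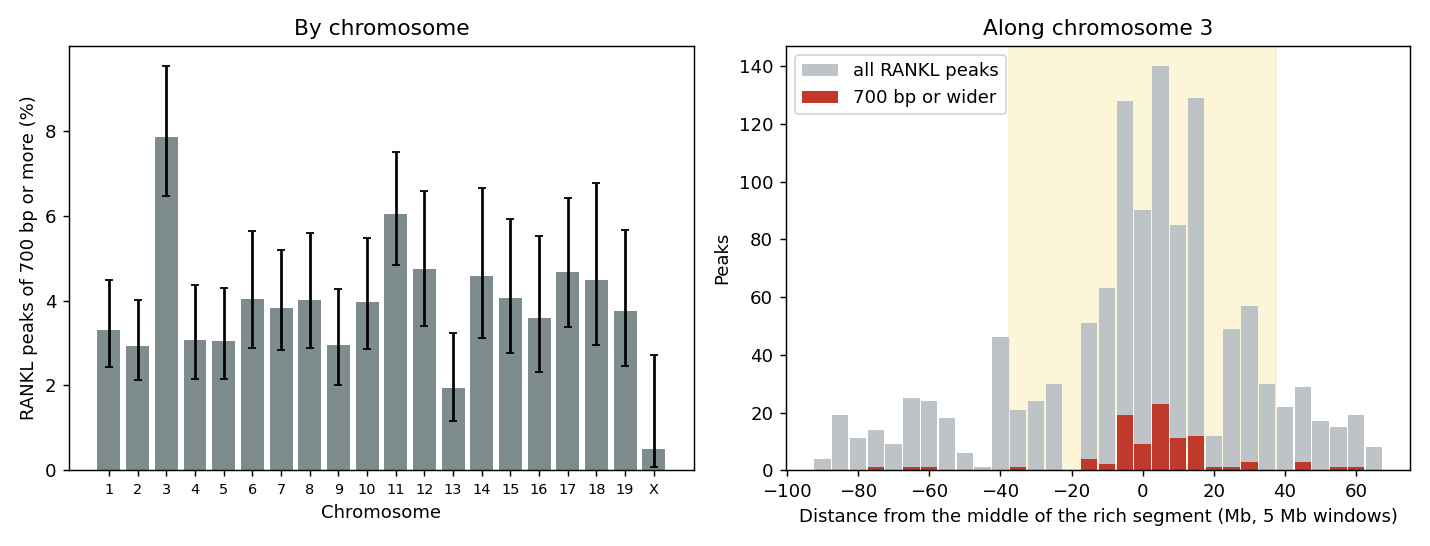
Left, percent of RANKL peaks that are 700 bp or wider on each chromosome, with 95% Wilson intervals; right, number of all RANKL peaks (grey) and of those 700 bp or wider (red) in 5 Mb windows along chromosome 3, by distance in Mb from the middle of the segment rich in RANKL peaks (shaded). Chromosome 3 stands highest at 7.86%, and 86 of its 94 wide sites lie in the shaded segment.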

How the data were processed

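DNase-seq peaks of 2 libraries were used, 1 per condition. The deposited files list peak positions, each with a score from the authors. Per the submitters' processing notes, the tools were MACS2 and Bowtie2 2.0.0, on mm9. How the score was defined, the threshold and any control are not given. Read depth is unknown, so no value carries a depth-based interval. Peaks on chromosomes 1 to 19 and X were kept. A peak of 700 bp or more was called wide, and 1 bp of overlap with the other list made it shared. Shares carry 95% Wilson intervals. Named sites were the 10 widest, the 5 with the highest score, the 5 widest unshared, the 5 unshared with the highest score outside cluster windows, and 3 on each side of 700 bp. The sites and rules were chosen with earlier results of these data known. Positions are 1-based on mm9; without a genome or annotation of that build, the planned gene, gene list and motif results were not computed, and no sequence is printed. Values were computed with scipy 1.17.1, pandas 2.3.3 and numpy 2.4.6 under Python 3.11.15. On simulated partners, including 1 bp overlaps and near misses, the overlap code was right for 16364 of 16364 peaks under each rule.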

Additional observations from a re-analysis of the deposited data

Results flagged for a closer look

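Chromosomes M and Y, which the choice of sites leaves out, held 15 further RANKL peaks of 700 bp or more, 4 on chromosome M (1628 to 2938 bp) and 11 on chromosome Y (714 to 2960 bp), and drew attention as signal outside the sites compared. Of these, 2 and 8 had no peak without RANKL on them. The untreated list had 1 peak on chromosome M and 12 on chromosome Y, against 5 and 78 with RANKL.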

How the results depend on the processing

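Of 34 alternatives, 17 gave a count within 1.5 times that reported, or a share or difference inside the reported interval. The 28.3-point difference in sharing changed sign with narrower peaks weighted to the score deciles of the wide sites (-0.84) or, added after the data were seen, to 50 score bins (-1.02), and was 0.46 with score deciles and no cluster windows (also added). It was 32.1 with a width of 500 bp, 19.1 with 1000 bp, 41.2 against the upper 50% of the list without RANKL, 30.9 without cluster windows and 39.0 with RANKL peaks closer than 1 kb merged. The share of wide sites that were shared was 84.8% at 1000 bp, 87.1% against the upper 50% of the other list (fewer peaks to meet) and 96.5% without cluster windows, which left 22 unshared sites. The number of sites was 1890 at 500 bp, 145 at 1000 bp and 2028 after merging, by construction. A RANKL neighbour lay within 5 kb of 30.4% of the sites, and within 1 kb of 27.5% at 500 bp. The cause of the other shifts was not tested. No paired analysis was possible because each condition had 1 library, and no replicate could be left out. Gene start alternatives were not run.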
